A study of Homo sapiens with 9 samples.

Results

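Expression after transfection of an siRNA to a spliced MTDH isoform (the isoform knockdown) was compared, across all measured genes, with expression after an siRNA to wild-type MTDH (the WT knockdown). The members are the 6 arrays whose titles name these knockdowns, 3 of each, out of 9 arrays in the series. The line was MDA-MB-231, an established estrogen receptor-negative human breast cancer line, and both groups received 200 pmol of siRNA and were harvested after 24 h. RNA was hybridised to 1-colour Illumina expression arrays, and each value is the authors' normalized signal on the log2 scale, so a difference of 1 is a 2-fold change. The untreated control arrays entered no test of this comparison except in 1 alternative fit, so each difference is between siRNAs and none is against cells with normal MTDH. Whether the control arrays entered the authors' normalization is not known here. The siRNA sequences are not known here, 1 cell line and 1 time were studied, and nothing says that the 3 arrays of a group came from separate cultures. The p-values therefore measure only the spread between these arrays, which may be technical.

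MTDH encodes metadherin, also called AEG-1 or LYRIC, a protein of the endoplasmic reticulum, nucleus and cell membrane that is often overexpressed in breast cancer. It binds the nuclease SND1, a component of the RNA-induced silencing complex, and it has been linked to NF-kB activity, metastasis and resistance to drugs. An siRNA is loaded into that same silencing complex, and double-stranded RNA in the cytosol can be sensed by helicases such as IFIH1 (MDA5), which start an interferon response.

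MTDH itself did not separate the groups. Its only kept probe read 10.07, 9.95 and 9.89 in the isoform knockdown, against 9.81, 9.99 and 10.10 in the WT knockdown, and the ranges overlapped. The difference, isoform minus WT, was 0.00 ± 0.09 (limma, adjusted p = 0.977), and it changed sign when isoform replicate 1 (-0.04) or WT replicate 1 (-0.08) was left out. Which transcripts of MTDH the probe detects is not known here, so this probe does not check which form each siRNA lowered. The MTDH-binding nuclease SND1 read 9.47, 10.08 and 9.94 in the isoform knockdown, against 9.06, 9.10 and 8.99 in the WT knockdown. All isoform knockdown arrays lay above all WT knockdown arrays, with a difference of 0.78 ± 0.12 (limma, adjusted p = 5.04e-05).

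Of 47231 probes, 20952 were detected on enough arrays to be tested, and they stood for 11690 named genes. At an adjusted p under 0.05 (limma, Benjamini-Hochberg), 8011 probes differed, which is 38.2% of those tested. Of these, 4186 were higher in the isoform knockdown and 3825 lower. Under median scaling of the signals the split was 4556 higher and 2280 lower, or 66.6% of the calls higher against 52.3%. Most differences were small, with a median size of 0.36 among called probes, and the smallest called size was 0.19. Only 208 probes (0.993%) also differed by at least 2-fold, 44 higher and 164 lower. The values of the groups did not overlap at 9974 probes (47.6%).

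With each gene represented by its brightest probe, 2544 genes rose (21.8%) and 2546 fell (21.8%) in the isoform knockdown, together 43.5% of genes. These shares are the background for every gene list below where no other setting is named, and "rose" and "fell" mean that the gene passed this test. List counts under median scaling have another background. Of 11006 protein-coding genes, 2682 rose and 1427 fell under median scaling, with a median of 0.07. Without it, 2464 of them rose and 2396 fell, with a median of 0.01. Genes named beyond the 20 largest changes in each direction and the 4 smallest adjusted p-values of each list, among them GBP2, DHX58, GAPDH, HIF1A, DDIT3 and RMRP, were chosen after their values were seen. Larger changes were mostly falls, with 28 genes higher and 118 lower by at least 2-fold. Counted by probe, 44 were higher and 164 lower at this size, and under median scaling 70 were higher and 108 lower. By at least 4-fold, SNORD21 was the only gene higher, against 8 lower. The 118 genes that fell had a median level of 7.35 in the isoform knockdown and 8.76 in the WT knockdown, and 9 of them were detected on no isoform knockdown array. The 28 genes that rose had a median level of 9.80 in the isoform knockdown and 8.68 in the WT knockdown.

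**Figure D1:**
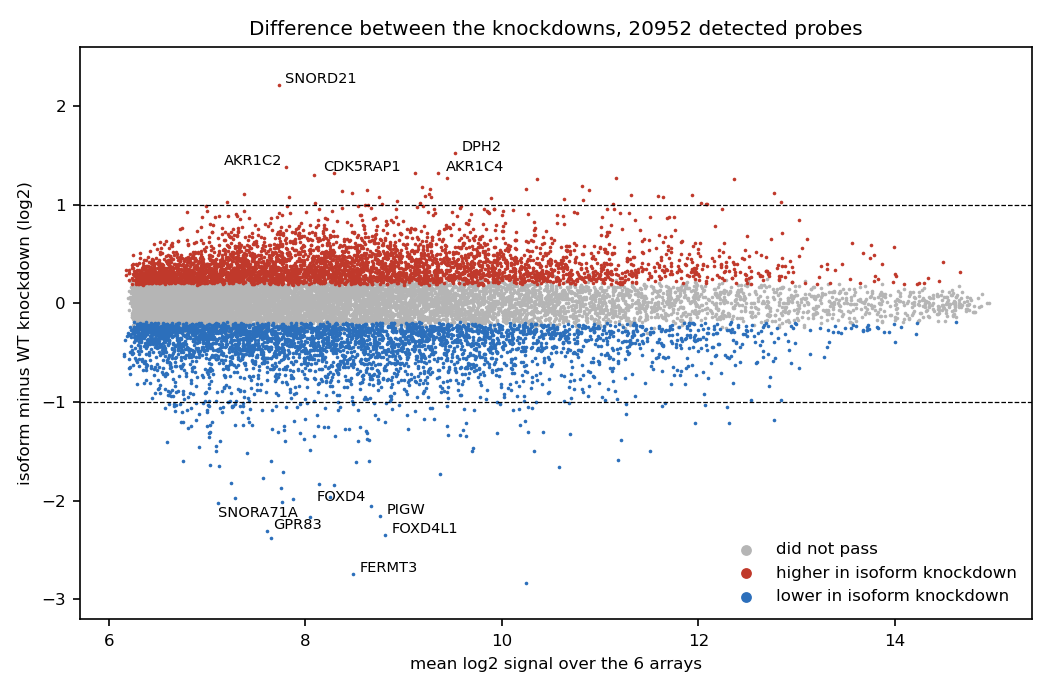
Difference between the knockdowns (isoform minus WT, log2) against the mean log2 signal over the 6 arrays, 1 point per detected probe, with dashed lines at 2-fold. Red points are higher and blue points lower in the isoform knockdown at adjusted p under 0.05; of the points beyond the dashed lines, 44 are higher and 164 lower.

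The largest fall among named genes was that of FERMT3, which encodes kindlin-3, an activator of integrins in blood cells. FERMT3 read 7.14, 7.01 and 7.20 in the isoform knockdown, against 9.79, 9.89 and 9.90 in the WT knockdown, a wide gap with no overlap. The difference was -2.74 ± 0.08 (limma, adjusted p = 1e-12), 6.70-fold lower in the isoform knockdown, and another probe of the gene gave -2.38 ± 0.08. GPR83, an orphan G protein-coupled receptor, read 6.35, 6.52 and 6.49 in the isoform knockdown, against 8.61, 8.75 and 8.92 in the WT knockdown. Its difference was -2.31 ± 0.09 (limma, adjusted p = 1.41e-11), and another GPR83 probe gave -0.90 ± 0.08. LAT and LAT2, membrane adaptors of antigen receptor signalling in lymphocytes and other immune cells, fell as well. LAT read 6.84, 6.83 and 7.07 in the isoform knockdown, against 8.58, 8.51 and 8.78 in the WT knockdown, and LAT2 read 6.28, 6.38 and 6.24 in the isoform knockdown, against 7.89, 7.85 and 8.11 in the WT knockdown, with LAT2 detected on 1 of the 3 isoform knockdown arrays (its difference was -2.57 after neqc background correction, against -1.65 ± 0.08). CARD9, an adaptor of fungal sensing in myeloid cells, differed by -1.77 ± 0.08 (limma, adjusted p = 8.44e-11).

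These genes are best known from blood cells, so leukocyte markers were read beside them. Of 9 measured leukocyte markers, 1 rose (CD68, 0.42 ± 0.08, while other CD68 probes gave -0.30 ± 0.09 and -0.11 ± 0.08) and 2 fell (LAT and FCER1G, -0.34 ± 0.08, or -0.56 after neqc). FCER1G was not above background on any isoform knockdown array and passed the detection filter only through the WT knockdown arrays. Its call is therefore partly fixed by that filter, and the size of its fall is not measured. The summed linear signal of the 9 ranged from 2634 to 2763 in the isoform knockdown and from 2641 to 2863 in the WT knockdown. In this sum the fall of LAT and the rise of CD68 offset each other. The other CD68 probes did not share that rise, so the overlap of the sums does not show a level leukocyte signal. No probe of PTPRC, CD3D, CD3E or CD3G, which define leukocytes and T lymphocytes, was among the kept probes.

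FOXD4 and FOXD4L1 encode forkhead transcription factors and belong to a family of near-identical copies, so their signals cannot be assigned to 1 copy. FOXD4 read 7.65, 7.64 and 7.65 in the isoform knockdown, against 9.62, 9.71 and 9.75 in the WT knockdown. FOXD4L1 read 7.38, 7.67 and 7.86 in the isoform knockdown, against 9.84, 10.00 and 10.13 in the WT knockdown. Both groups were clearly apart, with differences of -2.05 ± 0.07 (limma, adjusted p = 7e-12) and -2.35 ± 0.11 (limma, adjusted p = 1.34e-10). Other probes gave -1.12 ± 0.09 for FOXD4 and -1.84 ± 0.09 for FOXD4L1. FOXD4L3 also fell (-1.26 ± 0.09), and FOXD4L4 did not pass the test at -0.08 ± 0.08 (limma, adjusted p = 0.481).

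Several other falls concerned enzymes and regulators with no common pathway. PIGW, an acyltransferase of GPI anchor synthesis, read 7.76, 7.76 and 7.52 in the isoform knockdown, against 9.87, 9.86 and 9.79 in the WT knockdown, a difference of -2.16 ± 0.08 (limma, adjusted p = 1.41e-11), and its other, dimmer probe gave -0.63 ± 0.07. LHX3, a LIM homeobox gene active in the developing pituitary, differed by -2.01 ± 0.09 (limma, adjusted p = 1.02e-10), and the bile salt-activated lipase gene CEL by -1.83 ± 0.09 (limma, adjusted p = 2.18e-10). CLDN15, a claudin of tight junctions, fell by 1.60 ± 0.07, and the zinc finger genes ZNF721 and ZNF34 differed by -1.73 ± 0.09 and -1.59 ± 0.09. All of these had isoform knockdown arrays wholly below the WT knockdown arrays, as the naming rule required.

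For 3 of the 20 largest falls the isoform knockdown gave only a bound, because the probe was not above background on any of its arrays. BRD8, the bromodomain subunit of the TIP60 histone acetyltransferase complex, averaged 6.10 ± 0.17 in the isoform knockdown and 8.12 ± 0.12 in the WT knockdown (SD, n = 3 each). It was at least 3.50-fold lower (limma, adjusted p = 1.58e-10). VWCE averaged 6.21 ± 0.04 in the isoform knockdown and 7.85 ± 0.12 in the WT knockdown and was at least 2.90-fold lower (limma, adjusted p = 3.29e-10). PNLDC1, an exonuclease that trims piRNAs in germ cells, averaged 5.96 ± 0.06 in the isoform knockdown and 7.55 ± 0.15 in the WT knockdown and was at least 2.37-fold lower (limma, adjusted p = 9.11e-10). Over all genes, 112 were detected on all WT knockdown arrays and on none of the isoform knockdown arrays, and 104 of them were called. The opposite pattern held for 87 genes, of which 65 were called, with bounds of at most 1.37-fold. Every gene of either pattern, BRD8, VWCE and PNLDC1 included, passed the detection filter only through the group where it was detected. These calls are therefore partly fixed by that filter, and 43.5% of all genes were called.

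**Figure D2:**
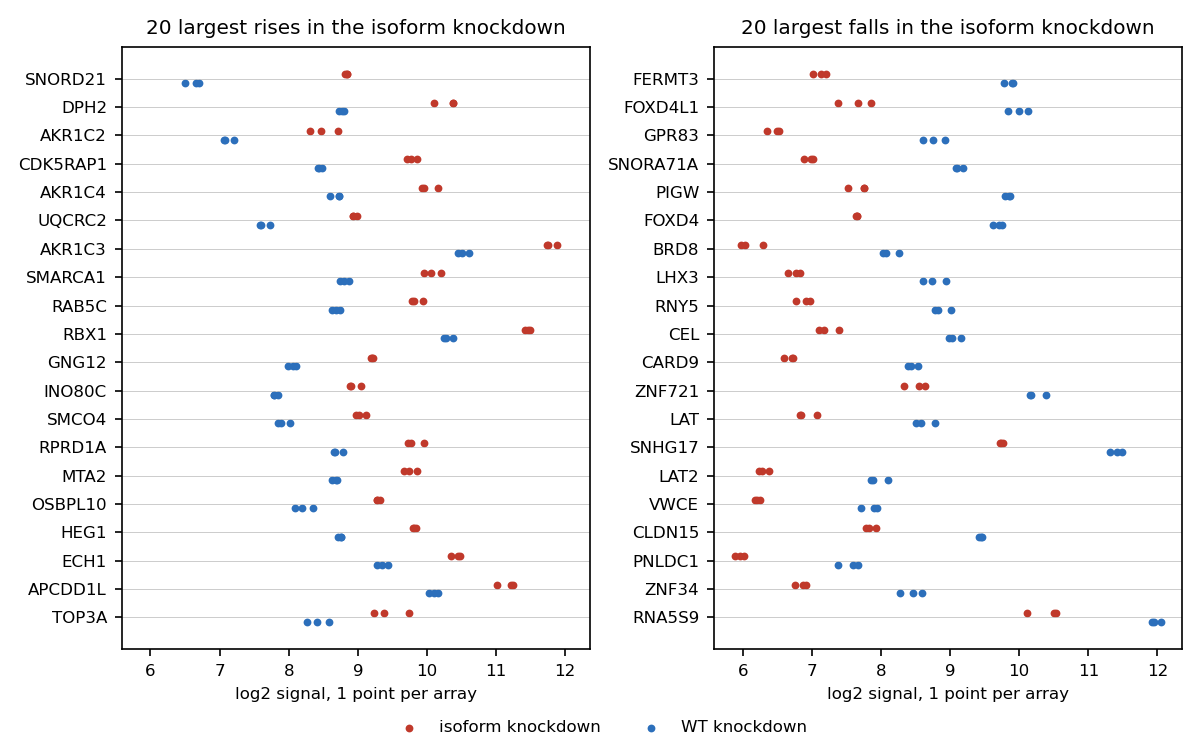
Log2 signal on each array, 1 point per array, for the 20 genes with the largest rises (left) and the 20 with the largest falls (right) in the isoform knockdown. Red points are isoform knockdown arrays and blue points WT knockdown arrays; the colours do not overlap in any row, and FERMT3 at about 7 against about 10 has the widest gap.

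Among the rises, that of the C/D box small nucleolar RNA SNORD21 stood first. SNORD21 read 8.84, 8.82 and 8.85 in the isoform knockdown, against 6.50, 6.66 and 6.71 in the WT knockdown, a difference of 2.21 ± 0.08 (limma, adjusted p = 5.6e-12), or 4.64-fold. DPH2, which acts in the synthesis of diphthamide on elongation factor 2, read 10.38, 10.10 and 10.37 in the isoform knockdown, against 8.76, 8.72 and 8.79 in the WT knockdown. It rose by 1.52 ± 0.09 (limma, adjusted p = 1.65e-09), and both of its other probes rose too, by 1.11 ± 0.09 and 0.75 ± 0.10. CDK5RAP1, an enzyme that modifies mitochondrial tRNAs, read 9.77, 9.85 and 9.71 in the isoform knockdown, against 8.43, 8.49 and 8.43 in the WT knockdown, and rose by 1.33 ± 0.08, with another probe at 0.40 ± 0.09. UQCRC2, a core subunit of respiratory complex III, read 8.94, 8.99 and 8.94 in the isoform knockdown, against 7.60, 7.72 and 7.58 in the WT knockdown, and rose by 1.32 ± 0.08. In both genes every isoform knockdown array lay more than 1 log2 unit above every WT knockdown array.

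Other rises of about 2-fold named chromatin and ubiquitin factors. SMARCA1, an ISWI remodelling ATPase, rose by 1.27 ± 0.08 (limma, adjusted p = 6.77e-09; 0.76 ± 0.08 by another probe), INO80C, a subunit of the INO80 remodeller, by 1.14 ± 0.08, and MTA2, a subunit of the NuRD deacetylase complex, by 1.09 ± 0.08. RBX1, the RING subunit of cullin ubiquitin ligases, read 11.46, 11.49 and 11.42 in the isoform knockdown, against 10.25, 10.28 and 10.38 in the WT knockdown, and rose by 1.15 ± 0.07 (limma, adjusted p = 6.97e-09). RPRD1A, which binds the tail of RNA polymerase II, rose by 1.11 ± 0.08, and TOP3A, a DNA topoisomerase, by 1.04 ± 0.11 (0.62 ± 0.11 by another probe). In membrane traffic and signalling, the early endosome GTPase RAB5C rose by 1.16 ± 0.08, the G protein subunit GNG12 by 1.15 ± 0.07 and the oxysterol-binding protein relative OSBPL10 by 1.08 ± 0.08. HEG1, a membrane protein of the cerebral cavernous malformation pathway, rose by 1.08 ± 0.07 and ECH1, an isomerase of fatty acid oxidation, by 1.07 ± 0.08. SMCO4 and APCDD1L rose by 1.11 ± 0.08 and 1.06 ± 0.08.

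The aldo-keto reductases, NADPH-dependent enzymes that reduce steroids, prostaglandins and reactive aldehydes, were among the largest rises. Of 7 measured members, 5 rose, 0 fell and 2 did not pass (AKR7A3, 0.21, and AKR1D1, 0.06), with a median difference of 0.99, against 0.01 over all genes. AKR1C3 read 11.89, 11.74 and 11.75 in the isoform knockdown, against 10.61, 10.51 and 10.45 in the WT knockdown, and AKR1C4 read 9.96, 10.15 and 9.92 in the isoform knockdown, against 8.73, 8.60 and 8.72 in the WT knockdown. AKR1C2 read 8.72, 8.47 and 8.31 in the isoform knockdown, against 7.20, 7.07 and 7.07 in the WT knockdown. The groups were apart by more than 1 log2 unit in each of these 3, with differences of 1.27 ± 0.08, 1.32 ± 0.08 and 1.39 ± 0.09 (limma, adjusted p between 4.28e-09 and 1.27e-08). The AKR1C genes are close copies of each other, so these probes may share signal. AKR1B10, from another branch of the family, read 7.52, 7.54 and 7.41 in the isoform knockdown, against 6.33, 6.58 and 6.59 in the WT knockdown and rose by 0.99 ± 0.09 (limma, adjusted p = 1.68e-07), or by 1.60 after neqc background correction.

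NRF2, the transcription factor of the oxidative stress response, controls several of these reductases, and its list was mixed. Of 23 measured genes, 8 rose and 4 fell, with a median of 0.09. SQSTM1, encoding the autophagy receptor p62, read 13.40, 13.30 and 13.35 in the isoform knockdown, against 12.36, 12.41 and 12.19 in the WT knockdown, the 1 member that changed at least 2-fold, with a difference of 1.03 ± 0.08 (limma, adjusted p = 5.14e-08). ABCC3, an efflux pump of conjugated drugs and bile acids, rose by 0.96 ± 0.09 (limma, adjusted p = 2.71e-07), and HMOX1, the heme-degrading enzyme, by 0.66 ± 0.07 (limma, adjusted p = 2.95e-06). KEAP1, which targets NRF2 for degradation, read 10.09, 9.96 and 9.96 in the isoform knockdown, against 10.84, 10.86 and 10.75 in the WT knockdown, lower on every isoform knockdown array, with a difference of -0.81 ± 0.08, and another KEAP1 probe gave -0.86 ± 0.07.

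Among interferon-stimulated genes, falls outnumbered rises in the isoform knockdown. Of 42 measured, 19 fell, 8 rose and 15 did not pass, with a median difference of -0.15. IFIT2, which binds viral RNA and limits its translation, read 10.64, 10.74 and 10.88 in the isoform knockdown, against 12.13, 12.39 and 12.24 in the WT knockdown, a difference of -1.50 ± 0.09 (limma, adjusted p = 2.37e-09). IFIH1, the cytosolic sensor of long double-stranded RNA, read 7.92, 7.72 and 7.76 in the isoform knockdown, against 9.02, 8.92 and 9.31 in the WT knockdown, a difference of -1.28 ± 0.10 (limma, adjusted p = 3.9e-08). HERC5, the ligase that attaches ISG15 to proteins, read 10.59, 10.51 and 10.53 in the isoform knockdown, against 11.52, 11.44 and 11.53 in the WT knockdown, and ISG15, that ubiquitin-like modifier, read 12.30, 12.35 and 12.25 in the isoform knockdown, against 13.18, 13.16 and 13.06 in the WT knockdown. In all 4 genes the isoform knockdown arrays lay below the WT knockdown arrays without overlap, and HERC5 and ISG15 differed by -0.95 ± 0.07 and -0.84 ± 0.08. IFIT3, IFIT1, DHX58 and OASL fell as well, with differences of -0.79 ± 0.08, -0.71 ± 0.07, -0.67 ± 0.09 and -0.66 ± 0.07. The response was not uniform, since GBP2, UBE2L6 and IFI35 rose, by 0.69 ± 0.07, 0.61 ± 0.08 and 0.54 ± 0.09. Under median scaling the counts were 13 lower and 9 higher and the median was -0.075.

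Interferon turns on many of these genes through the interferon-stimulated response element, a promoter motif bound by the ISGF3 and IRF factors. The promoter windows of 4 genes that fell are printed here to show where its core stands. Only windows with a match were taken for printing, so their matches are no result. IFIT3 has 2 windows, of which 1 is shown, and the reference used held no window for IFIT2. Each window runs from 250 bases before to 50 bases after a transcription start (RefSeq, GRCh38.p14), 5′ to 3′ on the gene's strand, and capitals mark matches to TTTCNNTTTC on either strand, which may overlap. The windows lie at chr10:89327747-89328046 (plus strand) for IFIT3, at chr2:162318635-162318934 (minus strand) for IFIH1, at chr4:88456869-88457168 (plus strand) for HERC5 and at chr1:1013247-1013546 (plus strand) for ISG15.
IFIT3: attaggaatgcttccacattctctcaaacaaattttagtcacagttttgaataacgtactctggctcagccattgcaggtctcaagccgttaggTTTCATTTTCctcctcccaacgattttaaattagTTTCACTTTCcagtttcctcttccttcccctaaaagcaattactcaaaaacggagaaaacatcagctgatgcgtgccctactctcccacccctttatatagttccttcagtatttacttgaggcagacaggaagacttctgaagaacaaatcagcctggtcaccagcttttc
IFIH1: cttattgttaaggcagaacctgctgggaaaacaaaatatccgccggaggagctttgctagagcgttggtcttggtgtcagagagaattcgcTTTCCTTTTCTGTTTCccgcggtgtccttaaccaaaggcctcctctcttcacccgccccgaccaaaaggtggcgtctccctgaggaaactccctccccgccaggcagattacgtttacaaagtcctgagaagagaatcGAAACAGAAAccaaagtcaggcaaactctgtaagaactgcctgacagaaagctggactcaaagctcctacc
HERC5: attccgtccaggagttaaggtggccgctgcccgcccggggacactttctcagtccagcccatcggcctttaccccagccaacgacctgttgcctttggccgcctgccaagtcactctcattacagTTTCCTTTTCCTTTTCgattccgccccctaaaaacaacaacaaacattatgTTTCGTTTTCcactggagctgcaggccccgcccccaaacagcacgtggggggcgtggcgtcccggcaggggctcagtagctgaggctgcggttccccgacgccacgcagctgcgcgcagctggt
ISG15: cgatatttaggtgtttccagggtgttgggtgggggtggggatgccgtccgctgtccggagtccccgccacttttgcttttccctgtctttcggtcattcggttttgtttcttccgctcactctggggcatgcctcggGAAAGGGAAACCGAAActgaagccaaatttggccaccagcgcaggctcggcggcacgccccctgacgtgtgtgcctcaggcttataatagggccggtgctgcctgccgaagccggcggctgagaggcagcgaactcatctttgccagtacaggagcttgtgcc
In these windows the first match begins 156 bases before the start in IFIT3, 159 in IFIH1, 125 in HERC5 and 113 in ISG15. Of the 14 fallen members of the list with a promoter window in the table, 11 held a match in at least 1 window, as did 11 of the 14 that did not pass the test and 2 of the 7 that rose. Of all 35116 windows of this length, 3.57% held a match. That share counts windows, while the list counts take genes with 1 or more windows, so the units differ. A match is a description of letters and not evidence of a bound site.

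**Figure D3:**
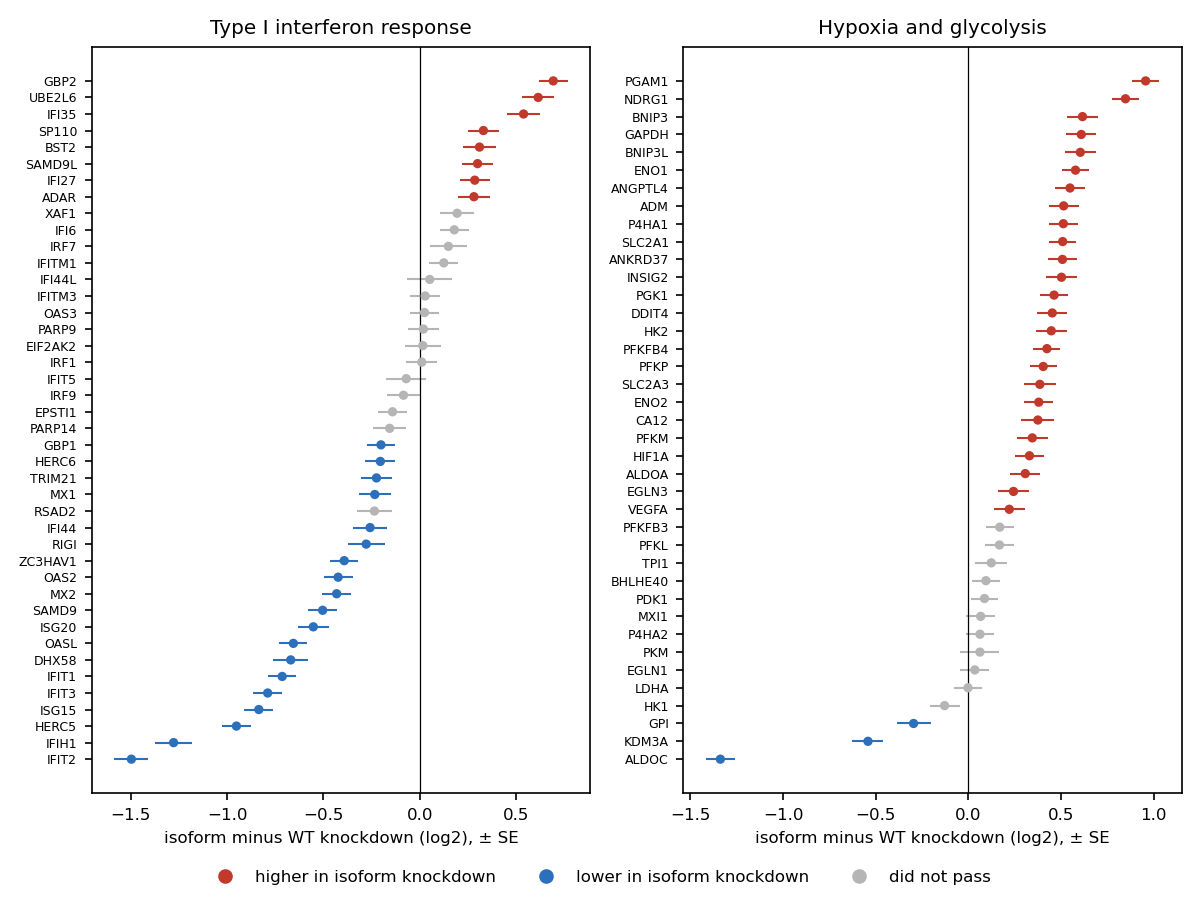
Difference between the knockdowns (isoform minus WT, log2, ± SE) for each measured interferon-stimulated gene (left) and each measured gene of hypoxia and glycolysis (right). Red is higher and blue lower in the isoform knockdown at adjusted p under 0.05, grey did not pass; 19 of 42 interferon genes are blue, with IFIT2 at -1.50 the lowest, and 25 of 39 hypoxia and glycolysis genes are red.

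Other inflammatory genes were read next. Chemokines and cytokines had 11 of 24 measured members higher and 1 lower, with a median of 0.18. CCL26, an eosinophil attractant, read 9.18, 9.32 and 9.41 in the isoform knockdown, against 8.36, 8.54 and 8.53 in the WT knockdown, and CCL20, the ligand of CCR6, read 7.85, 7.54 and 7.66 in the isoform knockdown, against 6.93, 6.94 and 6.99 in the WT knockdown, each without overlap and higher by 0.83 ± 0.08 and 0.73 ± 0.08. IL32 and IL12A rose by 0.47 ± 0.08 and 0.40 ± 0.07. Of 14 complement factors and regulators, 7 rose and 1 fell, led by factor B (CFB), which read 11.43, 11.32 and 11.45 in the isoform knockdown, against 10.61, 10.56 and 10.70 in the WT knockdown and rose by 0.78 ± 0.08 (limma, adjusted p = 7.16e-07). C3, the central component, rose by 0.36 ± 0.07 (0.24 ± 0.07 by another probe), C5 by 0.38 ± 0.08 (0.68 after neqc) and CD55, a membrane inhibitor of complement, by 0.55 ± 0.12.

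NF-kB targets and regulators were divided, with 8 of 26 higher and 8 lower and a median of -0.02. The falls were led by RELB, a subunit of the noncanonical pathway, and by the feedback inhibitors TNFAIP3 and NFKBIE. RELB read 7.92, 7.91 and 7.98 in the isoform knockdown, against 8.64, 8.69 and 8.84 in the WT knockdown, and the differences were -0.79 ± 0.08, -0.60 ± 0.07 and -0.54 ± 0.08 for these genes. The adhesion molecule VCAM1 rose by 0.41 ± 0.08 (limma, adjusted p = 0.000717), and another VCAM1 probe gave 0.13 ± 0.09 and did not pass. The count of falls was 4 under median scaling and 5 without isoform replicate 2 or WT replicate 1, and the count of rises was 4 without isoform replicate 1 and 5 without isoform replicate 2 or WT replicate 2. MHC class I presentation genes had 4 of 15 higher, among them the peptide-loading factor TAPBP (0.64 ± 0.09, with other probes at 0.45 ± 0.09 and 0.07 ± 0.10), and 2 lower, the immunoproteasome subunit PSMB10 (-0.39 ± 0.07) and the peptide transporter TAP2 (-0.30 ± 0.09). The call of TAP2 was lost without isoform replicate 2 (-0.27) or 3 (-0.26) or WT replicate 2 (-0.24), after neqc and after median scaling, and another TAP2 probe gave 0.08 ± 0.09.

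Genes of the integrated stress response and the unfolded protein response were lower in part. Of 33 measured, 14 fell and 4 rose, with a median of -0.07. ATF4, the transcription factor at the centre of this response, read 12.37, 12.47 and 12.24 in the isoform knockdown, against 13.26, 13.35 and 13.39 in the WT knockdown, and fell by 0.98 ± 0.08 (limma, adjusted p = 1.04e-07). Its target ASNS, asparagine synthetase, read 8.94, 8.96 and 8.95 in the isoform knockdown, against 10.52, 10.42 and 10.40 in the WT knockdown, a difference of -1.50 ± 0.07 (limma, adjusted p = 3.52e-10). In both genes the gap between groups was much wider than the spread within them, and 2 further ATF4 probes gave -0.93 ± 0.08 and -0.24 ± 0.08. The related factor ATF5 differed by -0.86 ± 0.09, and PPP1R15A, which directs dephosphorylation of the initiation factor eIF2, by -0.72 ± 0.08. DDIT4, DDIT3 and EDEM1 went the other way, with rises of 0.45 ± 0.08, 0.32 ± 0.08 and 0.42 ± 0.08.

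ATF4 acts through the C/EBP-ATF response element, and the window of ASNS around 1 of its starts holds a match to the core letters TGATGNAA 68 bases before that start. It is printed because ASNS fell most in this list, from chr7:97872359-97872658 (minus strand) in the same build and orientation, with the match in capitals. ASNS has 2 windows, and only a window with a match was taken for printing, so this match is no result.
ASNS: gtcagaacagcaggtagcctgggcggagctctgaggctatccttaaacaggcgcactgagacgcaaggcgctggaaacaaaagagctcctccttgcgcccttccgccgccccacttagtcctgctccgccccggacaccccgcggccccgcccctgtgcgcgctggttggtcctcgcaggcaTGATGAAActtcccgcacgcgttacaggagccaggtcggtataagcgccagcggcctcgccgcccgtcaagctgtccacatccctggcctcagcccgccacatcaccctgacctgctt
Of the 13 fallen members with a window, 4 held this core, as did 3 of 11 that did not pass and 0 of 4 that rose. Counted by window and not by gene, 3.62% of all windows did.

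Protein folding and degradation genes were lower. Heat shock proteins and chaperones had 13 of 25 members lower and 1 higher, with a median of -0.25. CHORDC1, an HSP90 co-chaperone, read 9.78, 9.54 and 9.49 in the isoform knockdown, against 10.29, 10.33 and 10.39 in the WT knockdown, and DNAJB1, an HSP40 partner of HSP70, read 10.17, 10.13 and 10.24 in the isoform knockdown, against 10.91, 10.83 and 10.71 in the WT knockdown, both without overlap. The differences were -0.73 ± 0.08 for CHORDC1, -0.64 ± 0.08 for DNAJB1, -0.59 ± 0.08 for the mitochondrial HSP70 HSPA9 and -0.53 ± 0.07 for HSPH1, with HSPA9 and HSPH1 at -0.39 and -0.33 under median scaling. Proteasome subunits had 14 of 27 lower and 0 higher, with a median of -0.20, led by PSMD2, which read 11.45, 11.50 and 11.41 in the isoform knockdown, against 12.15, 12.22 and 12.16 in the WT knockdown, and fell by 0.72 ± 0.07 (limma, adjusted p = 9.73e-07). PSMD8, PSMD1 and PSMC6 followed, at -0.66 ± 0.08, -0.54 ± 0.08 and -0.38 ± 0.08. The proteasome result depended on scaling, with 4 lower, 1 higher and a median of -0.04 under median scaling, and 9 lower without WT replicate 2. PSMC6, at -0.23 under median scaling, was among the calls lost, and its other probe, at -0.02 ± 0.10, did not pass.

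Hypoxia and glycolysis genes formed the list with the largest share of called members among those of more than 20 genes. Of 39 measured, 25 rose and 3 fell, with a median of 0.37, and all 39 listed genes were measured. PGAM1, a phosphoglycerate mutase with a near-identical relative in PGAM4, read 12.78, 12.66 and 12.73 in the isoform knockdown, against 11.78, 11.78 and 11.74 in the WT knockdown, and NDRG1, a stress-induced gene, read 11.72, 11.78 and 11.84 in the isoform knockdown, against 10.88, 10.96 and 10.96 in the WT knockdown. ENO1, enolase 1, read 14.29, 14.31 and 14.24 in the isoform knockdown, against 13.74, 13.73 and 13.64 in the WT knockdown, so these 3 were apart without overlap at high signal, with rises of 0.96 ± 0.07, 0.85 ± 0.07 and 0.58 ± 0.07. GAPDH, BNIP3 and the glucose transporter SLC2A1 rose by 0.61 ± 0.08, 0.61 ± 0.08 and 0.51 ± 0.07, and HIF1A, the oxygen-regulated transcription factor, by 0.33 ± 0.08. ALDOC, the brain-type aldolase, went the other way and read 8.86, 8.99 and 8.86 in the isoform knockdown, against 10.23, 10.19 and 10.31 in the WT knockdown, a difference of -1.34 ± 0.08 (limma, adjusted p = 1.86e-09). The histone demethylase KDM3A fell by 0.54 ± 0.08.

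The TGF-beta, matrix and invasion lists had more rises than falls. The TGF-beta list had 14 of 23 members higher and 2 lower (median 0.30), with the receptors TGFBR3 and TGFBR2 higher by 0.61 ± 0.07 and 0.53 ± 0.07, the inhibitor SMAD6 by 0.53 ± 0.08 and the target TGFBI by 0.47 ± 0.07. TGFBR2 read 10.53, 10.52 and 10.56 in the isoform knockdown, against 9.96, 10.09 and 9.97 in the WT knockdown, without overlap. Collagens and laminins had 12 of 21 higher and 3 lower (median 0.24). COL8A1 read 11.18, 11.19 and 11.32 in the isoform knockdown, against 10.34, 10.20 and 10.38 in the WT knockdown, and rose by 0.92 ± 0.08 (limma, adjusted p = 1.68e-07), with both other probes at 1.01 ± 0.08 and 0.94 ± 0.09. COL13A1, COL4A5 and the laminin chain LAMC1 rose by 0.77 ± 0.08, 0.70 ± 0.07 and 0.54 ± 0.07, and another COL4A5 probe by 0.42 ± 0.09.

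Genes tied in earlier work to metastasis of this cell line had 9 of 14 members higher and 0 lower, with a median of 0.31. KYNU, a kynureninase of tryptophan breakdown, read 8.42, 8.28 and 8.20 in the isoform knockdown, against 7.32, 7.35 and 7.27 in the WT knockdown, and rose by 0.99 ± 0.08 (limma, adjusted p = 7.03e-08). ANGPTL4, a secreted inhibitor of lipoprotein lipase, read 11.31, 11.25 and 11.36 in the isoform knockdown, against 10.73, 10.68 and 10.87 in the WT knockdown, with its other probes higher by 0.66 ± 0.08 and 0.24 ± 0.09. FSCN1, an actin-bundling protein, rose by 0.43 ± 0.08. Matrix proteases and their inhibitors had 13 of 26 higher and 3 lower (median 0.21), and the members with the smallest adjusted p were falls of CTSK (-0.67 ± 0.08) and ST14 (-0.60 ± 0.09, -0.99 after neqc) and rises of CTSD (0.41 ± 0.08) and TIMP3 (0.34 ± 0.07). ST14 was not above background on any isoform knockdown array and passed the detection filter only through the WT knockdown arrays. Its call is therefore partly fixed by that filter, and the size of its fall is not measured. Without isoform replicate 3 the higher count in this list was 8. Epithelial and mesenchymal markers had 8 of 20 higher and 0 lower, of both kinds, with the epithelial claudin CLDN7 at 0.58 ± 0.08 and the mesenchymal cadherin CDH11 at 0.50 ± 0.08. Integrin genes and their partners had 8 of 25 higher and 2 lower, with focal adhesion kinase PTK2 at 0.72 ± 0.08 (another probe, 0.17 ± 0.08, did not pass) and ITGB5 at 0.52 ± 0.07 (0.30 ± 0.08 by another probe), opposite to FERMT3 in the same list. That count was 5 higher without WT replicate 3.

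Among cell cycle genes, the mitosis list had more falls than rises. Of 47 mitosis and kinetochore genes, 20 fell and 5 rose, with a median of -0.17. TTK, the MPS1 checkpoint kinase, read 9.44, 9.42 and 9.39 in the isoform knockdown, against 10.03, 10.09 and 10.27 in the WT knockdown, and UBE2C, the ubiquitin-conjugating enzyme of the anaphase-promoting complex, read 12.60, 12.66 and 12.65 in the isoform knockdown, against 13.22, 13.25 and 13.27 in the WT knockdown, both without overlap. TTK, UBE2C, MKI67 and CENPN differed by -0.71 ± 0.08, -0.61 ± 0.07, -0.59 ± 0.07 and -0.60 ± 0.08. BIRC5, encoding survivin, rose by 0.41 ± 0.08, and its other probe by 0.86 ± 0.08. Under median scaling 12 fell and 6 rose, with a median of -0.09. S phase genes were near the background, with 7 of 37 lower and 5 higher, with CDC25A and ORC1 at -0.56 ± 0.08 and -0.56 ± 0.09; another CDC25A probe gave -0.15 ± 0.08 and did not pass. The S phase rises numbered 3 without isoform replicate 2 or WT replicate 3, and the falls 4 under median scaling. Replication-dependent histones, whose copies resemble each other, had 9 of 20 lower and 3 higher, with 4 and 4 under median scaling and 5 lower without isoform replicate 2 or WT replicate 1. H2BC5 rose by 0.83 ± 0.08, while another probe of it gave 0.07 ± 0.08 and did not pass.

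The p53 targets had 9 of 19 members lower and 2 higher, with SESN2 at -0.75 ± 0.09 (-1.22 after neqc), AEN at -0.54 ± 0.08 and TIGAR at -0.47 ± 0.07, and the pro-apoptotic BAX higher at 0.49 ± 0.08 (0.27 ± 0.08 by another probe). Under median scaling 5 of them were lower and 3 higher. CDKN1A, the p21 inhibitor of the cell cycle, read 9.98, 10.00 and 10.02 in the isoform knockdown, against 10.54, 10.43 and 10.38 in the WT knockdown, and fell by 0.44 ± 0.08 (limma, adjusted p = 0.000187). Apoptosis regulators were mixed, with 7 of 27 higher and 6 lower, and the anti-apoptotic BCL2L1 read 11.81, 11.81 and 11.63 in the isoform knockdown, against 10.90, 10.80 and 10.81 in the WT knockdown, higher by 0.92 ± 0.08 (limma, adjusted p = 1.68e-07). The 6 falls of that list became 1 under median scaling and 2 or 3 without isoform replicate 1 or 2 or WT replicate 1 or 2.

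Among splicing factors and among small noncoding RNAs, falls outnumbered rises. Splicing factors had 18 of 37 members lower and 5 higher, with a median of -0.21. CLK4, a kinase of SR proteins, read 7.29, 7.16 and 7.04 in the isoform knockdown, against 8.25, 8.49 and 8.47 in the WT knockdown, and its relative CLK1 read 9.78, 9.81 and 9.87 in the isoform knockdown, against 10.46, 10.42 and 10.44 in the WT knockdown, and the groups did not overlap in either. CLK4, the SR protein SRSF2, PTBP2 and CLK1 differed by -1.24 ± 0.09, -0.75 ± 0.07, -0.70 ± 0.08 and -0.62 ± 0.07, and another CLK1 probe, at -0.12 ± 0.08, did not pass. Under median scaling 11 fell and 7 rose, with a median of -0.07, and without isoform replicate 3 the rises numbered 3.

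Of 214 measured small RNA genes, 77 fell, 28 rose and 109 did not pass, with a median of -0.11. Under median scaling 59 of them fell and 25 rose, with a median of -0.06. All 13 genes that RefSeq classes as small nuclear RNAs fell, between -1.27 (RNU5A-1) and -0.33 (SNAR-A1), and 11 to 13 of them did with any 1 array left out. RNU4-1 averaged 6.90 ± 0.12 in the isoform knockdown and 7.85 ± 0.13 in the WT knockdown, a difference of -0.95 ± 0.09 (limma, adjusted p = 3.33e-07), and the abundant RNU6-1 differed by -0.55 ± 0.09 (limma, adjusted p = 0.000114). The class holds RNAs of the spliceosome and also RN7SK and SNAR-A1. Many of these genes have near-identical copies, so the number of independent RNAs behind this count is lower than 13. All 3 vault RNAs fell, with VTRNA2-1 averaging 7.10 ± 0.16 in the isoform knockdown and 8.49 ± 0.12 in the WT knockdown, a difference of -1.39 ± 0.09 (limma, adjusted p = 7.57e-09). Of 4 Y RNAs, which bind the Ro protein, 3 fell, and RNY5 was the most changed at 6.77, 6.91 and 6.97 in the isoform knockdown, against 8.79, 8.82 and 9.01 in the WT knockdown, a difference of -1.98 ± 0.08 (limma, adjusted p = 6.25e-11). The Y RNAs that fell numbered 2 under median scaling, after neqc and without WT replicate 3. The RNA of RNase MRP, RMRP, differed by -1.07 ± 0.09, the transcription regulator 7SK (RN7SK) by -0.90 ± 0.08 (another probe gave -0.41 ± 0.11) and a 5S ribosomal RNA gene, RNA5S9, by -1.59 ± 0.10.

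Small nucleolar RNAs, which guide methylation and pseudouridylation of ribosomal RNA, fell in 50 and rose in 18 of 142 genes. Under median scaling 35 fell and 17 rose. For the genes named SNORD the counts were 25 lower and 12 higher, or 16 and 13 under median scaling. SNORA71A read 6.99, 7.01 and 6.89 in the isoform knockdown, against 9.10, 9.09 and 9.19 in the WT knockdown, and SNORD14B read 6.36, 6.33 and 6.39 in the isoform knockdown, against 7.73, 7.54 and 7.76 in the WT knockdown, and both fell without overlap, at -2.16 ± 0.08 and -1.32 ± 0.08 (-2.12 after neqc for the dim SNORD14B). MicroRNA genes, measured by probes for their precursors or host transcripts, were near the background with 9 of 45 lower and 8 higher. The proteins of small RNA pathways had 5 of 17 higher and 4 lower, with the helicase MOV10 at 0.45 ± 0.08 and the RNase DICER1 at -0.39 ± 0.09 beside SND1. The numbers of those that rose and fell were 2 and 3 without isoform replicate 2, 3 and 3 without isoform replicate 1 or WT replicate 1.

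**Figure D4:**
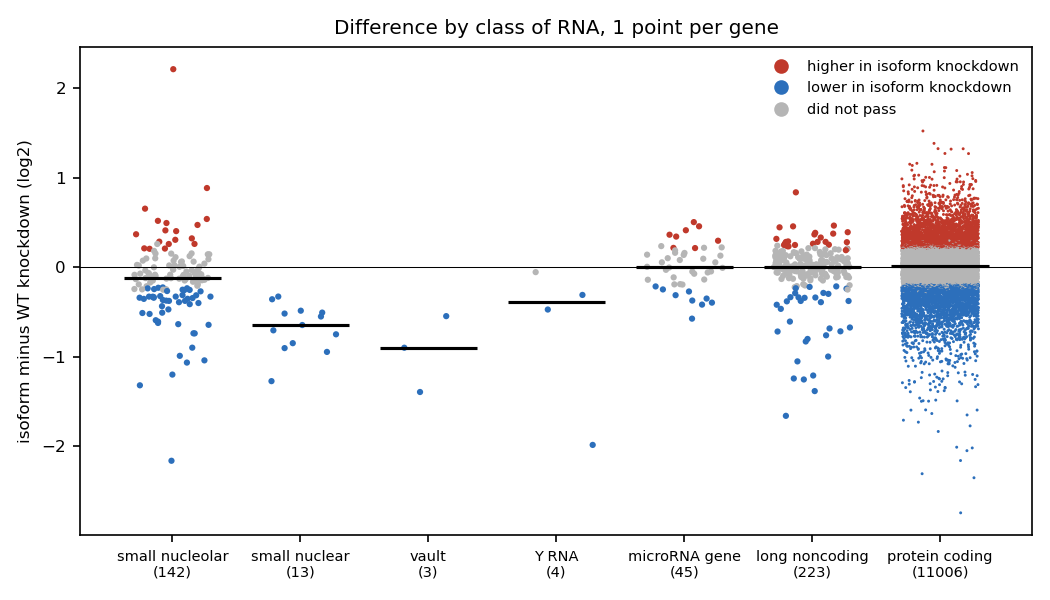
Difference between the knockdowns (isoform minus WT, log2) by class of RNA, 1 point per gene with the number of genes in parentheses and a black bar at the median. Red is higher and blue lower in the isoform knockdown at adjusted p under 0.05, grey did not pass; all 13 small nuclear and all 3 vault RNAs are blue, and SNORD21 is the red point at 2.21.

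Metabolic and signalling lists were divided or changed little. Cholesterol synthesis had 8 of 22 members lower and 2 higher, with SREBF1 at -0.68 ± 0.08 and SC5D at -0.53 ± 0.08, and 5 lower and 4 higher under median scaling. INSIG1, which holds SREBP in the endoplasmic reticulum, fell by 0.94 ± 0.09, while its other probe gave 0.40 ± 0.08, so its direction is not settled. Oxidative phosphorylation had 7 of 33 higher and 5 lower, or 8 higher and 1 lower under median scaling, and complex III was divided, with UQCRC2 higher and UQCRC1 lower at -0.52 ± 0.08. Of 45 cytosolic ribosomal protein genes 5 rose and 4 fell, or 20% beside 43.5% of all genes, with RPL5 at -0.71 ± 0.09 the most changed. The rises numbered 2 without isoform replicate 2 and 3 without WT replicate 3, and under median scaling 9 rose and 2 fell. Autophagy and lysosome genes had 11 of 35 in each direction, with WIPI2 at -0.85 ± 0.08 and MAP1LC3B at -0.61 ± 0.07 opposite to SQSTM1.

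Immediate early genes had 7 of 26 lower and 4 higher, with EGR1 at -0.67 ± 0.09 and KLF4 at -0.68 ± 0.10 (-0.37 ± 0.08 by another probe) against DUSP1 at 0.55 ± 0.09, with 4 lower without isoform replicate 2, and 3 lower and 5 higher under median scaling. Wnt pathway genes had 6 of 24 higher and 5 lower, with the receptor FZD4 at -0.66 ± 0.08 and the kinase GSK3B at -0.62 ± 0.08 against FZD6 at 0.52 ± 0.08. EGF family genes had 5 of 12 higher and 1 lower, with TGFA at 0.49 ± 0.11 and LRIG1 at 0.42 ± 0.08 (another LRIG1 probe, 0.15 ± 0.08, did not pass), and 3 higher without WT replicate 1. MAPK output and feedback genes had 5 of 22 higher and 4 lower, with MYC at -0.37 ± 0.08 (-0.22 and not called under median scaling, and -0.16 ± 0.09 and not called by its other probe) and EMP1 at 0.44 ± 0.08, with 1 higher without isoform replicate 3 and 3 without WT replicate 2 or 3. Of 8 metallothionein-list genes only SLC30A1, a zinc exporter, was called, at 0.23 ± 0.08, and that call was lost without isoform replicate 1 or 2 or WT replicate 2 or 3 (0.19 to 0.23) and after neqc (0.27); its other probe, at 0.13 ± 0.09, did not pass. Among 24 genes linked to metadherin, 8 fell and 5 rose, with the ubiquitin ligase TRAF6 at -0.44 ± 0.09, and without any 1 array other than WT replicate 2 the rises numbered 3, and under median scaling the falls numbered 3.

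**Figure D5:**
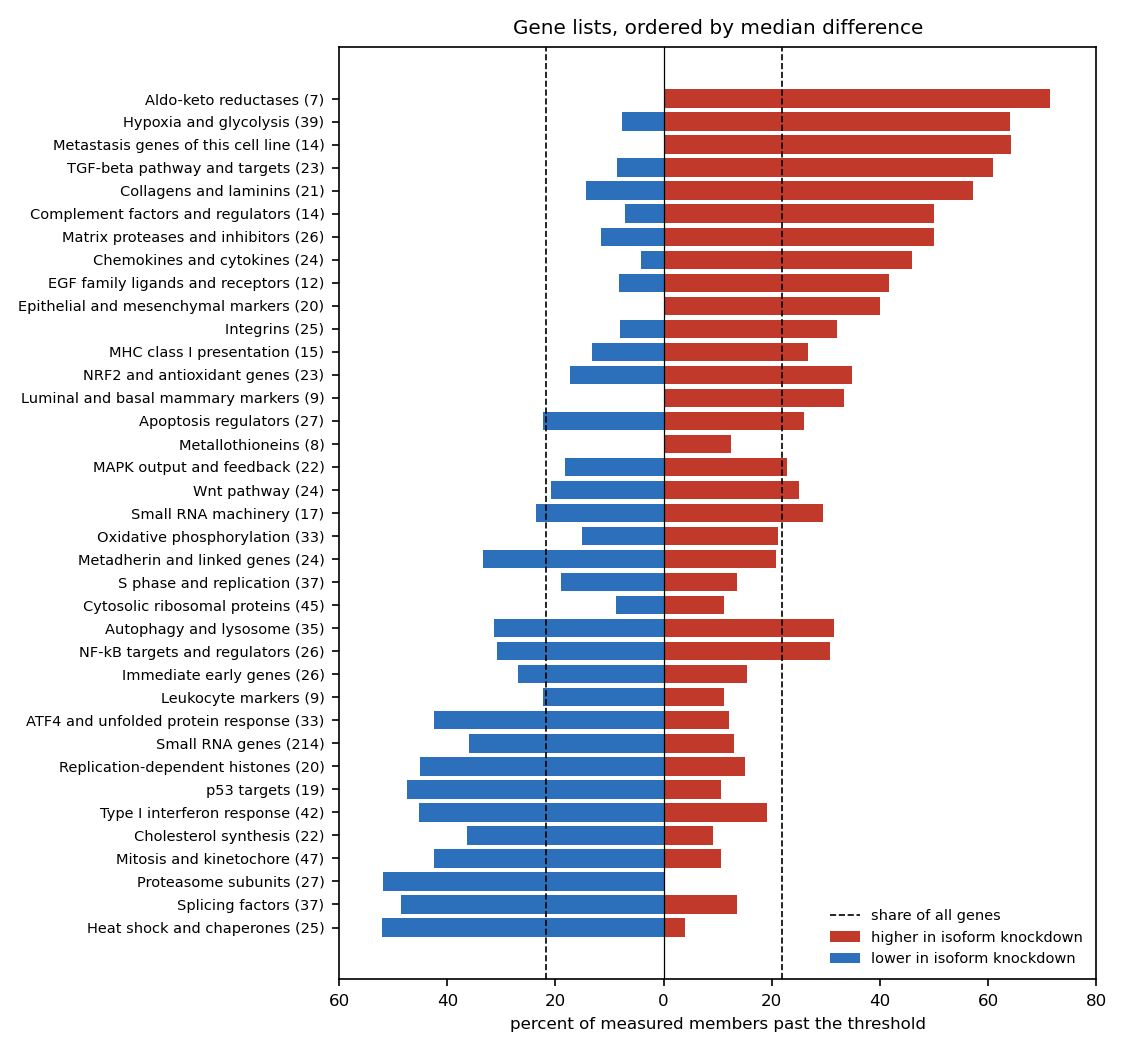
Percent of the measured members of each gene list that were higher (red, to the right) or lower (blue, to the left) in the isoform knockdown at adjusted p under 0.05, for lists with at least 7 measured members (number in parentheses), ordered by median difference. Dashed lines mark the share of all genes in each direction, 21.8%; aldo-keto reductases and hypoxia genes are at the top, and heat shock genes, splicing factors and proteasome subunits at the bottom.

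Of the few measured markers of other cell types, 1 of 4 fibroblast genes was higher (PDGFRB, 0.67 ± 0.08) and 1 lower, and 1 of 2 endothelial genes was lower (ESAM, -0.26 ± 0.07, -0.19 and not called under median scaling), 50% of each beside 43.5% of all genes. The summed linear signal of the fibroblast genes ranged from 439.4 to 472.6 in the isoform knockdown and from 379.8 to 402.0 in the WT knockdown. That of the endothelial genes ranged from 456.1 to 472.9 in the isoform knockdown and from 517.1 to 544.0 in the WT knockdown. The groups overlapped in neither, but each gap came from 1 gene. PDGFRB was the only fibroblast gene that rose, and LUM and DCN did not pass. ESAM stood beside ROBO4, which differed by 0.01 ± 0.08 and did not pass. The sums therefore do not measure fibroblasts or endothelial cells, and the part of such cells in other results was not tested. Of 9 luminal and basal mammary markers 3 rose and 0 fell, among them CAV1 at 0.56 ± 0.08 and CD44 at 0.26 ± 0.07 (other probes gave 0.32 ± 0.10, which passed, and -0.07 ± 0.07, which did not), which mark basal-like breast cancer lines. Their summed signal ranged from 22898 to 23690 in the isoform knockdown and from 17720 to 19227 in the WT knockdown, also without overlap. This sum was weighted to the bright CAV1, at a mean of 13.33 in the isoform knockdown and 12.77 in the WT knockdown.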

How the data were processed

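The authors deposited log2 values of 47231 probes per array, and a table of signal intensity with detection p-values. The submitters' processing notes name R 3.1.0. Background correction and normalization: not given in the sources used here. The deposited intensity and p-value rows of the knockdown arrays stand in another order than their probe IDs. All 47231 rows were matched to the deposited log2 values by their ranks on the 6 arrays, each to exactly 1 probe, and 0 stood at their own ID. No per-sample column was left unmapped.

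Tests used the deposited log2 values of the 6 arrays with limma 3.58.1 (lmFit and eBayes, 1 model with the knockdowns as groups, Benjamini-Hochberg over all kept probes) under R 4.3.3. A probe was kept if its detection p was under 0.05 on at least 3 arrays. On each array, 20487 to 21313 probes were detected; the number of arrays and the signal over background limit the precision. Gene names came from the platform annotation (30113 probes with 1 symbol, 8 with several, 17110 with none); symbols were updated through RefSeq. Of 5207 kept probes without a symbol, 1409 were called and none is named. The brightest kept probe stood for a gene. Among 3162 genes with more than 1 kept probe, 1539 were called, 889 with another probe called the same way, 42 with another probe called the opposite way and 608 with no other called. Bounds for undetected genes used the lowest signal detected on each array.

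Levels are log2 means ± SD (n = 3), differences are isoform minus WT ± SE. The named genes were MTDH, the 20 largest rises and falls among called genes with no overlap between groups, and, for each list, at most 4 members with the smallest adjusted p. The comparison, lists and rule were chosen with earlier results of these data known. Each list is described by its counts and median beside all genes. The script was tested on simulated data.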

Additional observations from a re-analysis of the deposited data

How the results depend on the processing

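Over 19 alternatives, 172 called named genes kept their direction, with 51 values losing the call. The exceptions in sign were both MTDH, which lay between -0.0765 (without WT replicate 1) and 0.0706 (without WT replicate 3) with 1 array left out, and at -0.0446 without isoform replicate 1. Called probes numbered 8011, and 6762 to 7219 with 1 array left out (195 to 225 at 2-fold or more), 7075 after neqc, 6836 after median scaling, 7436 without a filter on dim probes and 5517 at an adjusted p under 0.01. Background correction by neqc raised the probes at 2-fold or more to 480, with 126 higher and 354 lower. No probe called in both changed direction in any alternative. Replicate numbers did not pair the arrays: the deviations of same-numbered arrays correlated at -0.02, -0.04 and -0.02. With a replicate block 7755 probes were called, and no list count fell by over 1.5 times except the rises among genes linked to metadherin, at 3 against 5. WT replicate 3 stood apart on the second principal component (8.13% of the variance), at -14.1 against 7.93 and 7.14. Dim probes were called less: 15.9% of those with a mean of 6.15 to 6.62, against 48.8% of those above 9.10. Slide and date were not used here, so a batch shared by a group cannot be told apart from its siRNA.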

Other observations

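Gene families that no list held as a whole were read after their values were seen. Among zinc finger genes named ZNF, falls outnumbered rises: of 353 measured, 137 fell and 28 rose in the isoform knockdown, with a median of -0.14, and 99 fell under median scaling. ZNF143, which activates small nuclear RNA genes, averaged 8.98 ± 0.08 in the isoform knockdown and 10.44 ± 0.29 in the WT knockdown, a difference of -1.46 ± 0.11 (limma, adjusted p = 3.85e-08). ZNF614, ZNF823 and ZNF177 differed by -1.29 ± 0.08, -1.25 ± 0.08 and -1.20 ± 0.08, and the largest ZNF rise was that of ZNF185, at 0.89 ± 0.08. Cytosolic aminoacyl-tRNA synthetase genes, several of them ATF4 targets, had 11 of 16 members lower and 1 higher (KARS1, 0.21 ± 0.08), and 6 lower under median scaling. YARS1, VARS1 and AARS1 differed by -0.77 ± 0.09, -0.73 ± 0.08 and -0.63 ± 0.07. The falls of YARS1, AARS1 and WARS1 were already counted in the list of the integrated stress response and the unfolded protein response. Of 6 GAGE cancer-testis antigen genes, near-identical copies on the X chromosome, 4 fell and 0 rose. GAGE12C, not above background on any isoform knockdown array, averaged 6.13 ± 0.11 in the isoform knockdown and 7.34 ± 0.11 in the WT knockdown and was at least 2.04-fold lower (limma, adjusted p = 1.71e-08). All 4 GAGE genes that fell passed the detection filter only through the WT knockdown arrays. Their count is therefore partly fixed by that filter.

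Among SNHG genes, which host small nucleolar RNAs, falls outnumbered rises as well. Of 14 SNHG genes, 9 fell and 0 rose, led by SNHG17 (-1.66 ± 0.08), SNHG15 (-1.38 ± 0.09) and SNHG12 (-1.24 ± 0.09). Under median scaling 6 fell. RefSeq placed 96 measured small nucleolar RNA genes inside 1 other measured gene, with strand not considered, in 63 hosts. Of these 96, 35 fell and 11 rose. The host fell for 50 of the 96, rose for 10 and did not pass for 36. A host that holds several of these RNAs, such as RPL13A, was counted again for each. The host fell for 23 of the 35 that fell, did not pass for 9 and rose for 3. It fell for 6 of the 11 that rose and for 21 of the 50 that did not pass. SNORA71A and its host SNHG17 both fell, at -2.16 ± 0.08 and -1.66 ± 0.08. SNORD32A rose by 0.54 within RPL13A, which fell by 0.51, while SNORD33 in the same host fell by 0.41. SNORD14B fell by 1.32 within RPS13, which rose by 0.23.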
